A study of Danio rerio with 6 samples.

Results

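The mitochondrial ribosome is assembled in the mitochondrial matrix from 2 ribosomal RNAs that the mitochondrial genome encodes and from proteins that are encoded in the nucleus, made in the cytosol and imported. It translates the few membrane subunits of the respiratory chain and of ATP synthase that mitochondrial DNA still encodes. Its small subunit decodes the messenger RNA and its large subunit joins the amino acids, and each holds proteins descended from the bacterial ribosome beside proteins that exist only in mitochondria. Genes of these proteins carry symbols that begin with mrps (small subunit) or mrpl (large subunit). Every row of the deposited count table whose symbol has this form and goes on with a digit was taken, which gave 57 of the 11016 rows, 19 of the small and 38 of the large subunit. All 57 matched a RefSeq symbol once a numeric suffix was removed. A further 18 RefSeq symbols of this form were not analysed here as members, among them mrpl58, which the table lists as ict1.

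The sorted cells came from larval zebrafish (Danio rerio), labelled WT and aged 5 days post fertilization, that carried the transgene Tg(pnp4a:PALM-mCherry), a membrane-bound red fluorescent protein under the promoter of pnp4a. The iridophore group holds 3 libraries of cells sorted for the reporter, iridophores being the pigment cells that form light-reflecting purine crystals. The control group holds 3 libraries of a general cell population sorted from dissociated larvae of the same kind, and no label states that cells with the reporter were removed from it. Each library was made from about 20000 cells, as biological replicates, with a bulk form of MARS-seq that counts the 3' ends of polyadenylated transcripts.

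Total counts were 616439 to 1686552 in the iridophore libraries and 1612637 to 3282480 in the control libraries, so that 3 counts amounted to 1.66 to 5.43 CPM (counts scaled by library total and TMM factor) among iridophores, against 0.888 to 1.76 CPM among controls. Of 15 tested iridophore markers, 14 were higher in iridophores, although 9 of the 15 passed the expression filter through the iridophore libraries only, which builds in a rise, and their summed share of counts was 0.376% to 0.741% in iridophores, against 0.0139% to 0.0209% in the control, where akap12a, defbl1 and alx4a had no counts. Genes of some other cells and of the cell cycle moved with the groups as well. Over all tested genes 22.1% were higher and 17.8% lower. Of 23 tested skeletal muscle genes, 16 were higher, with 2.41% to 3.33% of counts in iridophores, against 1.42% to 1.74% in the control. The 6 tested erythrocyte genes were all lower, with 0.0741% to 0.0752% in iridophores, against 0.152% to 0.203% in the control. Of 19 tested liver, intestine and pancreas genes, 7 were lower, with 1.17% ± 0.286 of counts in iridophores, against 2.92% ± 1.35 in the control (SD, n = 3 each), and the lowest control library lay within the range of the iridophore libraries. Of 15 tested cell cycle genes, 5 were higher (33.3%) and 1 was lower (6.67%), with 0.0428% to 0.0505% in iridophores, against 0.0304% to 0.0324% in the control. Of these 15, 2 passed the filter through iridophores only and 4 through the control only. The lower gene was mki67 (log2 fold change -1.33), while DESeq2 and limma-voom called 0 genes of the list lower. Of 7 tested neuron genes, 0 were called by edgeR (0 at an unadjusted p under 0.05, and 0 by DESeq2 and limma-voom), with 0.0111% ± 0.00134 of counts in iridophores, against 0.0138% ± 0.00556 in the control (SD, n = 3 each). No marker of the muscle, erythrocyte, digestive and cell cycle lists was at 0 in either group, and the part of these cells in the results that follow was not tested.

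Transcripts of mitochondrial ribosomal proteins made up a smaller part of the RNA in iridophores than in the general population. The 57 genes took 0.254%, 0.206% and 0.205% of all counts in iridophore replicates 1, 2 and 3, against 0.356%, 0.325% and 0.328% in control replicates 1, 2 and 3. Every iridophore library lay under every control library. The means were 0.222% ± 0.028 in iridophores and 0.336% ± 0.0171 in the control (SD, n = 3 each), so that iridophores stood at 65.9% of the control. The names of the replicate 1 libraries have another ending than those of replicates 2 and 3, and the iridophore share was the lower one within replicate 1 and within replicates 2 and 3 alike. In sorted bulk samples, a lower amount of a transcript per cell and fewer cells that hold it cannot be told apart.

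**Figure D1:**
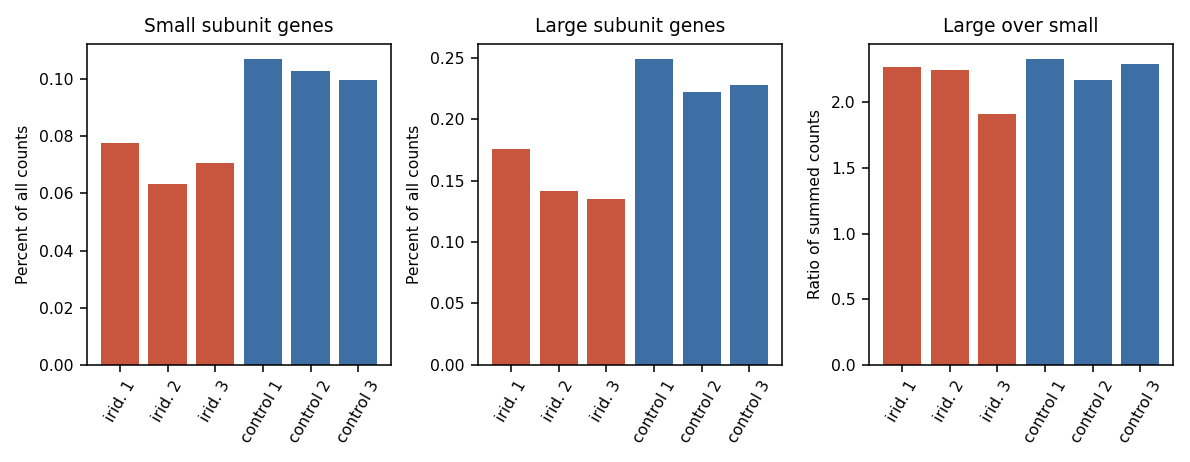
Percent of all counts taken by small subunit genes (left) and large subunit genes (middle) in each library, and the ratio of their summed counts (right), with iridophore libraries in red and control libraries in blue. Both shares are lower in all 3 iridophore libraries, while the ratio lies between 1.91 and 2.33 in all 6.

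Gene by gene, the default edgeR filter kept 52 of the 57 members, and 43 of the 52 had negative log2 fold changes. At an adjusted p under 0.05 (edgeR quasi-likelihood F test, Benjamini-Hochberg adjustment over 6849 genes), 16 of the 52 were lower in iridophores, or 30.8%, beside 17.8% of all tested genes, and 5 were higher, or 9.62%, beside 22.1% of all tested genes. The other 31 were not called. The median log2 fold change of the 52 was -0.51, beside 0.01 over all tested genes. CPM values of the groups did not overlap for 30 members: iridophores lay below the control for 23 (24.9% of all tested genes did so) and above it for 7 (26.9% of all tested genes). The 5 higher members passed the filter through the iridophore libraries only, so that a difference was built into their being tested, and their number is no support for a rise. Among the 47 members that passed in both groups, edgeR called 16 lower and 0 higher (1 higher at an unadjusted p under 0.05, 0 by DESeq2 and 1 by limma-voom), where 19.0% of the genes with the same property were lower and 18.4% higher. The count of 16 lower members depended on single libraries: leaving out iridophore replicate 1, 2 or 3 gave 25, 9 or 6 lower members, and leaving out control replicate 3 gave 9. The count over all genes moved as well, from 1217 lower to 1396, 860 or 915 without iridophore replicate 1, 2 or 3. For the run without control replicate 3 the count over all genes is not given here, so its 9 has no such measure beside it.

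**Figure D2:**
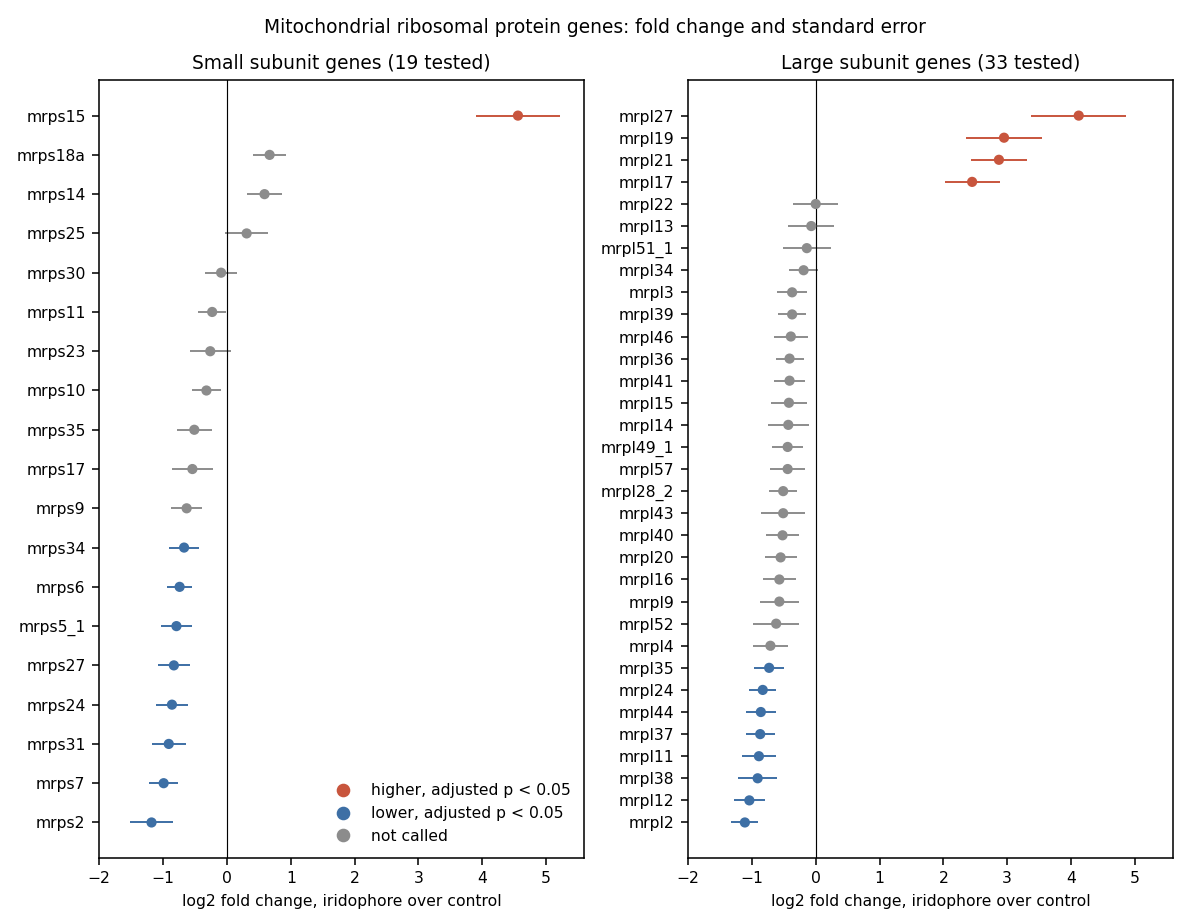
Log2 fold change of iridophore over control for the 19 tested small subunit genes (left) and the 33 tested large subunit genes (right), with bars for the standard error. Red points were called higher, blue points lower and grey points neither; 4 large subunit genes and mrps15 stand apart on the right, and the called falls run from -0.67 to -1.18.

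In the small subunit, 8 of 19 tested genes fell and 1 rose. These were 42.1% and 5.26%, beside 17.8% lower and 22.1% higher over all tested genes. The core protein mrps7, which binds the head of the small subunit, had 32.6, 31.5 and 35.9 CPM in iridophores, against 67.2, 77.5 and 56.7 CPM in the control. The ranges were far apart, and the iridophore mean was 49.7% of the control. It fell by 0.99 on the log2 scale (SE 0.23, edgeR adjusted p 0.0068). Another homologue of a bacterial protein, mrps6, had 50.7, 45.9 and 52.5 CPM in iridophores, against 84.6, 81.7 and 83.5 CPM in the control. Its replicates agreed closely in both groups, and it fell by 0.74 on the log2 scale (SE 0.20, edgeR adjusted p 0.0156). The gene mrps2 had 34.4, 11.5 and 23.8 CPM in iridophores, against 40.2, 59.9 and 57.2 CPM in the control. It had the most negative value of all tested members, at -1.18, and also the widest spread among the called falls (SE 0.34, edgeR adjusted p 0.0207).

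The remaining falls of the small subunit were in mrps31, mrps24, mrps27, mrps5_1 and mrps34. The protein of mrps24 is the counterpart of bacterial S3 at the entry of the messenger RNA channel. Its transcript had 81.5, 61.6 and 47 CPM in iridophores, against 124, 102 and 112 CPM in the control. Its iridophore libraries differed among themselves by more than the control libraries did, but the groups stayed apart (log2 fold change -0.86, SE 0.25, edgeR adjusted p 0.0193). The proteins of mrps31, mrps27 and mrps34 exist only in mitochondria. The gene mrps31 averaged 17.1 ± 2.49 CPM in iridophores, against 31.4 ± 3.94 CPM in the control (SD, n = 3 each). The pentatricopeptide repeat gene mrps27 averaged 21.8 ± 3.11 CPM in iridophores, against 38.3 ± 4.29 CPM in the control. The gene mrps34 averaged 39.9 ± 8.71 CPM in iridophores, against 63 ± 8.71 CPM in the control. Their log2 fold changes were -0.91, -0.83 and -0.67, with edgeR adjusted p of 0.0215, 0.0252 and 0.049. For mrps5_1, whose symbol has a suffix that the sources used here do not explain, the values were 30.8, 43 and 28.2 CPM in iridophores, against 53, 57 and 64.3 CPM in the control, a difference of -0.79 on the log2 scale (SE 0.24, edgeR adjusted p 0.0266).

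In the large subunit, 8 of 33 tested genes fell and 4 rose. These were 24.2% and 12.1%, beside 17.8% lower and 22.1% higher over all tested genes. The 4 that rose passed the filter through iridophores only. The protein of mrpl2 sits next to the peptidyl transferase centre, and its transcript had 41.7, 44.4 and 49.7 CPM in iridophores, against 102, 94 and 101 CPM in the control. Replicates hardly differed, and iridophores stood at 45.7% of the control (log2 fold change -1.11, SE 0.21, edgeR adjusted p 0.00214). The stalk that recruits translation factors is built from mrpl12 on a base that includes mrpl11. For mrpl12 the iridophore libraries had 125, 74.5 and 75.2 CPM, against control libraries of 191, 188 and 181 CPM, with replicate 1 well above the other two iridophore libraries and still below the control. It fell by 1.04 on the log2 scale (SE 0.24, edgeR adjusted p 0.00727). For mrpl11 the values were 112, 94.6 and 59.7 CPM in iridophores, against 181, 138 and 167 CPM in the control (log2 fold change -0.89, SE 0.26, edgeR adjusted p 0.0216).

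Of the large subunit falls, 3 were in mitochondria-specific proteins. The gene mrpl44, whose protein has a ribonuclease III-like fold, had 29, 41.6 and 34.3 CPM in iridophores, against 67.5, 69.9 and 53.7 CPM in the control (log2 fold change -0.86, edgeR adjusted p 0.0161). The gene mrpl37 had 83.3, 55.9 and 53.6 CPM in iridophores, against 118, 114 and 115 CPM in the control (log2 fold change -0.87, edgeR adjusted p 0.0137). The gene mrpl38 had 63.4, 60.2 and 34.3 CPM in iridophores, against 122, 72.3 and 91.1 CPM in the control, and the iridophore maximum lay close to the control minimum (log2 fold change -0.91, edgeR adjusted p 0.036). The homologues of bacterial proteins mrpl24, which in bacteria starts large subunit assembly, and mrpl35 completed the set, at -0.83 and -0.73 (edgeR adjusted p 0.0118 and 0.0357).

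Of the 16 falls, 6 were called in every alternative run (mrps6, mrps7, mrpl2, mrpl12, mrpl24 and mrpl44), and the other 10 lost the call when single libraries were left out. The call of mrps34 was also lost with DESeq2 (adjusted p 0.0753). Without iridophore replicate 3 the 10 had edgeR adjusted p of 0.0546 (mrpl37) to 0.124 (mrpl38). Without iridophore replicate 2 calls were lost for mrps2, mrps24, mrps27, mrps31, mrps34, mrpl35 and mrpl38 (0.0535 to 0.136), and without control replicate 3 for mrps2, mrps27, mrps34, mrps5_1, mrpl11, mrpl35 and mrpl38 (0.0526 to 0.0832). Without control replicate 1 the calls of mrps31, mrps34, mrpl35 and mrpl38 were lost (0.0585 to 0.097), and without control replicate 2 those of mrps2, mrps27, mrps34 and mrpl35 (0.0503 to 0.117). None of the 21 called members reversed its sign in any alternative that tested it.

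**Figure D3:**
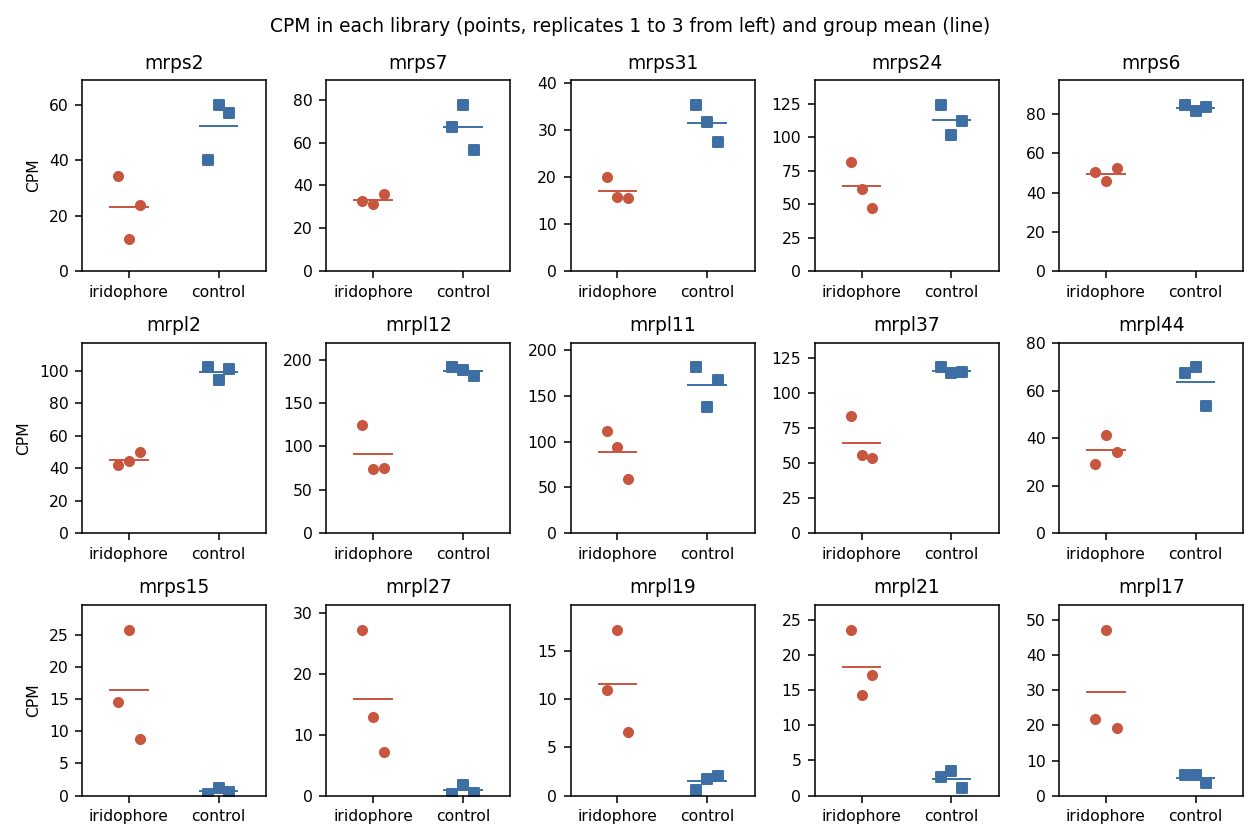
CPM in each library for 10 members called lower (upper and middle rows) and the 5 called higher (bottom row), with iridophore libraries in red left of control libraries in blue and a line for each group mean. The groups do not overlap in any panel; the control values of the bottom row lie under 6 CPM.

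The 5 higher genes were mrps15, mrpl17, mrpl19, mrpl21 and mrpl27. All are homologues of bacterial ribosomal proteins. In bacteria the protein of mrps15 binds ribosomal RNA early in small subunit assembly, and that of mrpl27 reaches toward the peptidyl transferase centre. These rows had at most 20 counts in any control library and averaged 0.659 to 5.11 CPM in the control. Each of the 47 members that passed the filter in both groups averaged 21.9 CPM or more there. Counts of 3' ends are not scaled to transcript length. The annotation behind the counting is not given in the sources used here, and whether it bears on these low control counts, or on those of aurkaip1, chchd1 and tomm5 below, was not tested.

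For mrps15 the counts were 8, 18 and 16 in iridophores, against 1, 2 and 1 in the control. These are 14.5, 25.8 and 8.84 CPM in iridophores, against 0.296, 1.17 and 0.506 CPM in the control. Because every control library was at or under 3 counts, the summed counts were compared: iridophores were 24.2-fold higher, with a 95% Clopper-Pearson interval of 8.79 to 93 that covers counting error only (edgeR adjusted p 0.000509). For mrpl27 the counts were 15, 9 and 13 in iridophores, against 1, 3 and 1 in the control, a ratio of 17.1 (interval 6.69 to 55.6, edgeR adjusted p 0.00183). In CPM the 3 iridophore libraries spread from 7.18 to 27.2, and the highest control library was at 1.76.

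For mrpl17, whose control counts were higher, the values were 21.7, 47.3 and 19.3 CPM in iridophores, against 5.92, 5.87 and 3.54 CPM in the control (log2 fold change 2.45, SE 0.43, edgeR adjusted p 0.00156). For mrpl21 they were 23.6, 14.3 and 17.1 CPM in iridophores, against 2.66, 3.52 and 1.01 CPM in the control (log2 fold change 2.87, SE 0.44, edgeR adjusted p 0.000734). For mrpl19 they were 10.9, 17.2 and 6.63 CPM in iridophores, against 0.592, 1.76 and 2.03 CPM in the control (log2 fold change 2.95, SE 0.60, edgeR adjusted p 0.0035). Each of the 5 kept its call in every alternative in which it was tested, and the filter at 10 CPM left mrps15, mrpl19 and mrpl27 untested. In the main run these rows were tested through the iridophore libraries only, and all runs share the same low control counts. The kept calls are therefore no support for a rise. None of the 5 overlaps another gene in the RefSeq annotation of GRCz12tu, an assembly other than the danRer11 build named by the submitters.

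The 5 members outside the filter were large subunit genes with few counts. The closest to the group just described was mrpl32, with counts of 8, 4 and 11 in iridophores, against 0, 1 and 2 in the control, a ratio of summed counts of 17.7 (95% Clopper-Pearson interval 5.34 to 92, counting error only). The gene mrpl48 had 5, 8 and 10 counts in iridophores, against 7, 0 and 4 in the control, a ratio of 4.82 (2.26 to 11). The intervals were 1.02 to 6.29 around a ratio of 2.52 for mrpl30, 0.792 to 4.72 around 1.95 for mrpl18_1 and 0.416 to 2.38 around 1.04 for mrpl23. These ratios compare libraries of 3 against 3 by counting alone, and the main run did not test these rows. An edgeR run with no filter did include them. In it 7 of the 57 members were higher, 6 of them in the large subunit and 0 among the members measured in both groups, and 17 were lower. Over all 11016 rows 1793 were higher and 1406 lower in that run.

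A further 31 members were tested and not called, with log2 fold changes of -0.71 to 0.67. Of these, 27 had negative values, 7 lay below the control in all 3 iridophore libraries, 2 lay above it and 22 overlapped. Nearest to the threshold was mrpl4, with 120, 71.7 and 68 CPM in iridophores, against 159, 114 and 145 CPM in the control (log2 fold change -0.71, SE 0.27, edgeR adjusted p 0.0554); it overlaps hyls1 in the annotation and was called lower in 7 of 15 alternatives. The most abundant uncalled member of each subunit also had a negative value without passing. In the large subunit mrpl20 averaged 99.9 ± 31.7 CPM in iridophores, against 145 ± 12.2 CPM in the control (edgeR adjusted p 0.101), and in the small subunit mrps10 averaged 82.1 ± 20 CPM in iridophores, against 102 ± 4.5 CPM in the control (edgeR adjusted p 0.285; SD, n = 3 each).

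The genes mrps18a and mrps14, also uncalled, lay above the control in all 3 iridophore libraries. The gene mrps18a, whose paralogs mrps18b and mrps18c were not analysed here, had 34.4, 30.1 and 39.2 CPM in iridophores, against 26, 18.8 and 20.8 CPM in the control. Its log2 fold change of 0.67 (SE 0.26) did not pass at an edgeR adjusted p of 0.0613, and did pass in 4 of 15 alternatives. For its part mrps14 had 38, 35.8 and 41.4 CPM in iridophores, against 33.1, 18.2 and 24.8 CPM in the control (log2 fold change 0.59, SE 0.28, edgeR adjusted p 0.117). The nearest to no difference were mrpl22, mrpl13, mrps30 and mrpl51_1, with values of 0.00, -0.07, -0.09 and -0.14 and standard errors of 0.35, 0.36, 0.25 and 0.38. The suffixed rows mrpl28_2 and mrpl49_1 stood at -0.51 and -0.44 (edgeR adjusted p 0.0944 and 0.181).

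Some counts may include reads of a neighbour. In the RefSeq annotation 15 members overlap another gene, among them the called genes mrpl2, mrpl11, mrpl24 and mrpl37, and whether the counting used strand is not given in the sources used here. For mrpl24 the neighbour mllt11 was tested and gave a log2 fold change of 0.10 (edgeR adjusted p 0.853). Values for the neighbours of mrpl2, mrpl11 and mrpl37 are not given here. For mrpl40, which was not called, the neighbour acaa2 gave -1.06 (edgeR adjusted p 0.00719).

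Small and large subunit were then compared as groups, as a description. Small subunit genes took 0.0775%, 0.0634% and 0.0705% of counts in the iridophore libraries, against 0.107%, 0.103% and 0.0997% in the control libraries. Large subunit genes took 0.176%, 0.142% and 0.135% in iridophores, against 0.249%, 0.222% and 0.228% in the control. Iridophores thus stood at 68.3% of the control for the small and 64.8% for the large subunit. The ratio of large to small subunit counts was 2.14 ± 0.202 in iridophores and 2.26 ± 0.0833 in the control (SD, n = 3 each), a difference within the spread of the libraries. The median log2 fold change was -0.54 in the small and -0.44 in the large subunit. Called lower were 42.1% and 24.2% of their tested genes, beside 17.8% of all tested genes. In mammalian structures the proteins of mrps30 and mrps18a belong to the large subunit, and with both moved there the medians were -0.63 and -0.44 and the counts of falls stayed at 8 and 8. Without iridophore replicate 3 the falls numbered 2 in the small and 4 in the large subunit, and 915 over all genes, beside 1217 in the main run.

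**Figure D4:**
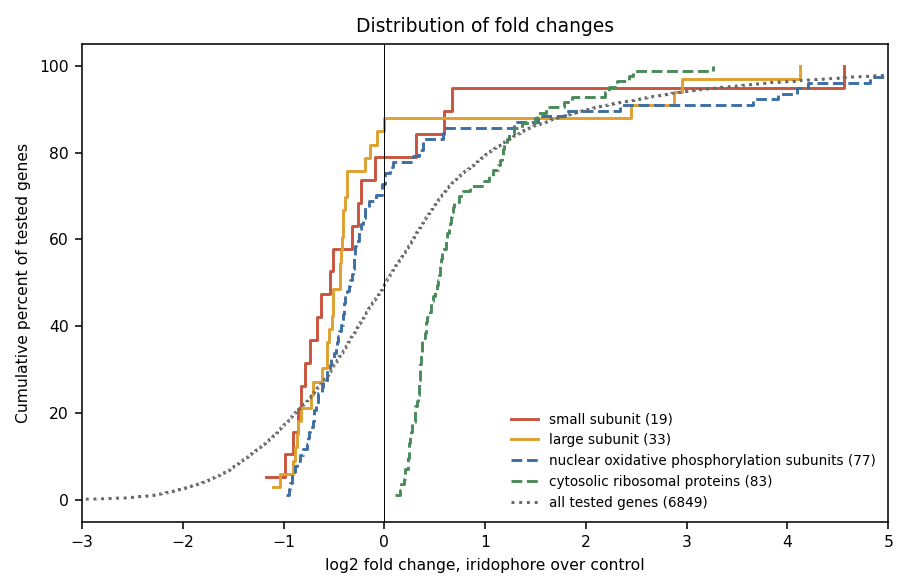
Cumulative percent of tested genes (vertical axis) up to each log2 fold change of iridophore over control (horizontal axis, shown from -3 to 5), for both subunits, nuclear oxidative phosphorylation subunits, cytosolic ribosomal proteins and all tested genes. The curves of both subunits rise steeply left of 0 around medians of -0.54 and -0.44, that of cytosolic ribosomal proteins right of 0 around 0.53.

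Members were also divided by the origin of their proteins. Those with a bacterial homologue had a median log2 fold change of -0.51 over 33 tested genes, with 10 lower (30.3%) and 5 higher (15.2%). Over all tested genes 17.8% were lower and 22.1% higher. The 5 higher genes had passed the filter through iridophores only. Mitochondria-specific members also had a median of -0.51, over 19 tested genes, with 6 lower (31.6%) and 0 higher by edgeR (0 higher at an unadjusted p under 0.05, and 0 by DESeq2 and limma-voom). None of these 19 had passed through iridophores only. Whether the classes differ was not tested.

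Of 6 tested mitoribosome proteins with other symbols, 1 was lower and 2 were higher. These were 16.7% and 33.3%, beside 17.8% lower and 22.1% higher over all tested genes. The pentatricopeptide repeat protein ptcd3 fell, with 21.7, 15.8 and 26 CPM in iridophores, against 50.6, 43.5 and 45.1 CPM in the control (log2 fold change -1.08, SE 0.26, edgeR adjusted p 0.00828). The GTP-binding subunit dap3 had 54.3, 54.5 and 32.6 CPM in iridophores, against 84, 66.4 and 62.8 CPM in the control, without passing (log2 fold change -0.64, edgeR adjusted p 0.079). The large subunit protein gadd45gip1 and ict1, a peptidyl-tRNA hydrolase of that subunit, were at -0.35 and -0.07 (edgeR adjusted p 0.214 and 0.844). The small subunit proteins aurkaip1 and chchd1 were higher and, like the 5 members above, passed the filter through iridophores only. Their calls are therefore no support for a rise. For aurkaip1 the values were 32.6, 33 and 22.7 CPM in iridophores, against 4.44, 1.76 and 0.506 CPM in the control (log2 fold change 3.45, edgeR adjusted p 0.000543). For chchd1 they were 30.8, 12.9 and 22.1 CPM in iridophores, against 5.03, 3.52 and 5.06 CPM in the control (log2 fold change 2.21, edgeR adjusted p 0.00156).

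The ribosomal RNAs of the mitoribosome overlapped between the groups. The small subunit RNA mt-rnr1 had 1720, 1600 and 1050 CPM in iridophores, against 1260, 1330 and 1270 CPM in the control (log2 fold change 0.18, SE 0.21, edgeR adjusted p 0.528). The large subunit RNA mt-rnr2 had 15800, 8370 and 7680 CPM in iridophores, against 12100, 15700 and 9550 CPM in the control (log2 fold change -0.23, SE 0.29, edgeR adjusted p 0.56). Without iridophore replicate 1, mt-rnr2 was called lower, at -0.65 (edgeR adjusted p 0.0383). The RNA was selected for poly(A) tails, so these values need not follow the amount of ribosomal RNA.

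Genes that assemble the mitoribosome or work with it were examined from lists. Where their transcripts were scarce, some passed the filter through the control libraries only, which builds in a fall: 6 of 12 tested genes of assembly, 4 of 7 translation factors and 3 of 5 synthetases did so, and their counts of falls are no support for one. Of 12 tested genes of assembly and ribosomal RNA modification, 2 were lower and 0 higher by edgeR (0 higher at an unadjusted p under 0.05, and 0 by DESeq2 and limma-voom), with a median log2 fold change of -0.43. The share of falls, 16.7%, was near the 17.8% of all tested genes. The median was -0.71 without iridophore replicate 1. The matrix protein c1qbp had 266, 244 and 205 CPM in iridophores, against 486, 454 and 435 CPM in the control, and fell by 0.95 on the log2 scale (SE 0.19, edgeR adjusted p 0.00338). The RNA-binding protein fastkd2 was at -1.35 (edgeR adjusted p 0.0355), with 4.3 to 27.2 CPM in iridophores, against 27 to 39.6 CPM in the control, ranges that overlapped slightly. It passed through the control only and lost its call without iridophore replicate 2 or 3 or control replicate 1 or 3 (edgeR adjusted p 0.0622 to 0.132).

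Of 7 tested translation factors, 2 were lower and 0 higher by edgeR (0 higher at an unadjusted p under 0.05, and 0 by DESeq2 and limma-voom), with a median of -0.61. The share of falls was 28.6%, beside 17.8% of all tested genes. Without iridophore replicate 3 the median was -1.08 and 0 genes were lower, 0 were lower with the filter at 10 CPM, and without control replicate 1 there were 0 lower and 1 higher. The elongation factor tufm, which brings aminoacyl-tRNA to the ribosome, had 170, 150 and 124 CPM in iridophores, against 202, 226 and 178 CPM in the control (log2 fold change -0.45, edgeR adjusted p 0.112). The called genes were scarce and passed the filter through the control only: guf1, a GTPase related to bacterial elongation factor 4, at -2.07 (edgeR adjusted p 0.0126), and the release factor family member mtrf1 at -1.90 (edgeR adjusted p 0.0322). The call of guf1 was lost without iridophore replicate 3 or control replicate 1 (edgeR adjusted p 0.108 and 0.0524), and that of mtrf1 without any single library other than iridophore replicate 2 (edgeR adjusted p 0.0538 to 0.174). Among 5 tested mitochondrial aminoacyl-tRNA synthetases the median was -1.07, and -1.49 without iridophore replicate 3. Of the 5, 2 were lower, or 40%, beside 17.8% of all tested genes, and 1 had passed the filter in both groups. The valyl-tRNA synthetase vars2 and the threonyl-tRNA synthetase tars2 were lower, at -1.65 and -0.90 (edgeR adjusted p 0.0188 and 0.0358), vars2 having passed the filter through the control only, though DESeq2 called neither (adjusted p 0.0783 and 0.0884). Without iridophore replicate 2 or 3 or control replicate 1 or 3 both calls were also lost, and without control replicate 2 that of vars2 was (edgeR adjusted p 0.055 to 0.147).

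Of 8 tested genes of mitochondrial DNA maintenance and transcription, 2 were higher and 3 lower, with a median of -0.16. These were 25% higher and 37.5% lower, beside 22.1% and 17.8% of all tested genes. Of the 8, 2 passed the filter through iridophores only and 2 through the control only. A difference was built into their being tested, so that calls of these genes are no support for a rise or a fall. Leaving out iridophore replicate 1 or 2 gave medians of -0.97 or -0.38, and leaving out control replicate 2 gave -0.43. The transcription factor tfb2m had 18.1, 14.3 and 17.7 CPM in iridophores, against 37, 62.3 and 51.1 CPM in the control (log2 fold change -1.56, SE 0.29, edgeR adjusted p 0.00228). The mitochondrial ribonuclease P subunits trmt10c and hsd17b10 were also lower, at -1.47 and -0.95 (edgeR adjusted p 0.0155 and 0.0104), the first not without iridophore replicate 3 (edgeR adjusted p 0.0857) and with the filter passed through the control only. The mitochondrial DNA packaging factor tfam had 18.1, 28.7 and 12.7 CPM in iridophores, against 9.17, 4.11 and 3.54 CPM in the control, and slirp, an RNA-binding partner of lrpprc, had 19.9, 24.4 and 17.1 CPM in iridophores, against 9.17, 2.94 and 6.58 CPM in the control. They were higher by log2 fold changes of 1.64 and 1.60 (edgeR adjusted p 0.0189 and 0.011), having passed the filter through iridophores only. The call of tfam was lost without iridophore replicate 2 or control replicate 2 or 3 (edgeR adjusted p 0.0643 to 0.0895).

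Import brings every mitoribosome protein into the organelle, and of 33 tested rows of import and outer membrane genes 11 were lower and 3 higher, with a median of -0.42. These were 33.3% lower and 9.09% higher, beside 17.8% and 22.1% of all tested genes. The channel gene tomm40l and the receptor gene timm50_1 had the most negative values, at -1.44 and -1.69 (edgeR adjusted p 0.00143 and 0.0262). The call of timm50_1, a suffixed row that passed the filter through the control only, was lost without iridophore replicate 2 or 3 or control replicate 1 (edgeR adjusted p 0.0839 to 0.117). Against the majority, tomm5, a small subunit of the outer membrane translocase, had 103, 88.9 and 55.3 CPM in iridophores, against 2.37, 5.87 and 2.53 CPM in the control (log2 fold change 4.55, SE 0.40, edgeR adjusted p 2.44e-05), having passed the filter through iridophores only. The co-chaperone grpel2 and the outer membrane channel vdac1 were higher by 1.25 and 0.96 (edgeR adjusted p 0.00252 and 0.00929), and vdac1 lost its call without control replicate 2 (edgeR adjusted p 0.0722). The 11 falls became 6 without iridophore replicate 2 and 6 without control replicate 3. Over all genes the falls went from 1217 to 860 without iridophore replicate 2. Their number without control replicate 3 is not given here.

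**Figure D5:**
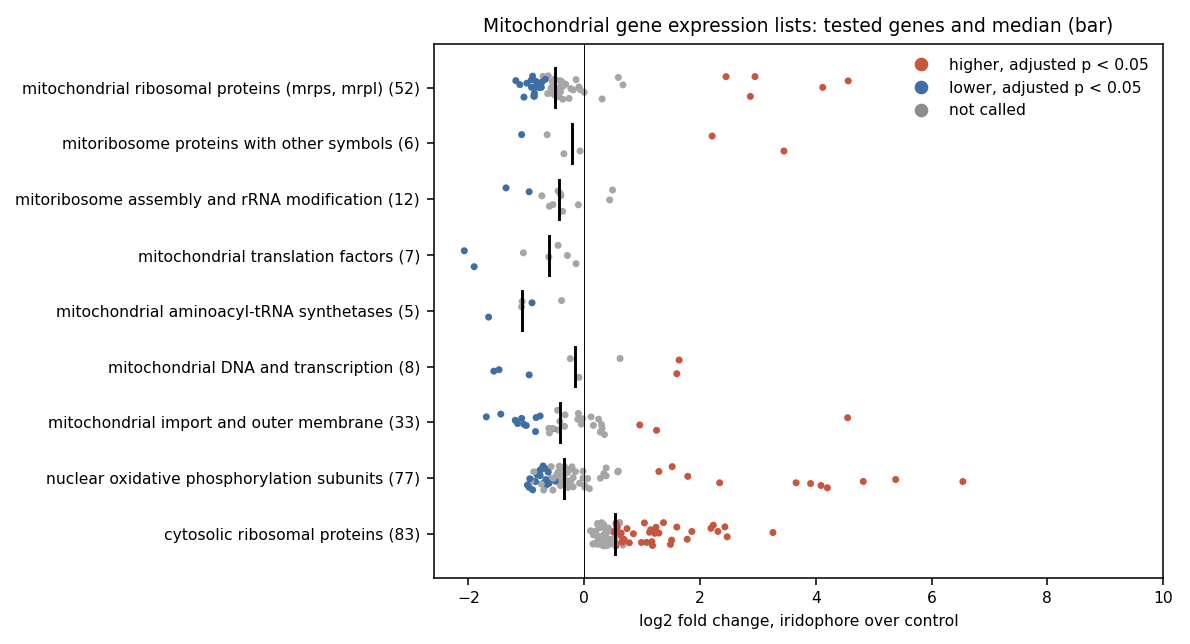
Log2 fold change of iridophore over control for every tested gene of the mitochondrial ribosomal proteins and of 8 related lists, with the number tested in parentheses and a black bar at the median; red points were called higher, blue points lower and grey points neither, and vertical scatter within a row carries no value. Medians lie left of 0 for the mitochondrial lists and right of 0 for cytosolic ribosomal proteins.

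Transcripts of cytosolic ribosomal proteins moved the other way. Of 83 tested cytosolic ribosomal protein rows, 40 were higher and 0 lower by edgeR (0 lower at an unadjusted p under 0.05, and 0 by DESeq2 and limma-voom), with a median log2 fold change of 0.53. The 40 were 48.2% of the list, beside 22.1% of all tested genes, and 7 of the 83 rows passed the filter through iridophores only. DESeq2 called 28 rows of the list higher and limma-voom 38. The list took a share of 29.9% ± 2.89 of counts in iridophores and 24.2% ± 0.961 in the control (SD, n = 3 each). With the counts of cytosolic ribosomal proteins and mitochondrial ribosomal RNA left out of the total, mitochondrial ribosomal proteins took 0.323% ± 0.0509 in iridophores and 0.452% ± 0.0276 in the control (SD, n = 3 each), or 71.3% of the control. Nuclear subunits of oxidative phosphorylation had a median of -0.34 over 77 tested rows, with 18 lower (23.4%, beside 17.8% of all tested genes) and 11 higher (14.3%, beside 22.1%), 5 of the rows having passed the filter through iridophores only, and a share of counts at 69.6% of the control. Log2 fold changes of these oxidative phosphorylation rows ran from -0.98 to 6.54. The 4 largest called changes of that list, in ndufa4l2a, cox6b2, cox4i2 and atp5ia, were rises. In both lists, calls of rows that passed the filter through iridophores only are no support for a rise. None of these differences between lists was tested.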

How the data were processed

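The authors deposited raw counts per gene symbol for 6 libraries; per the submitters' processing notes, cutadapt, STAR 2.5.2b, HTSeq, DESeq2 1.36.1 and the build danRer11 were named, without their order. The annotation, use of molecular identifiers and row filter are not given in the sources used here, and the lowest row maximum is 6 counts. Columns were matched through library names in the sample descriptions, and 0 columns had no sample.

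Counts were fitted with edgeR 4.0.16 (R 4.3.3): default expression filter (minimum count 10, total 15, or 6.06 CPM in 3 libraries), which kept 6849 of 11016 rows and 98.7% of counts, TMM scaling, quasi-likelihood F test with group as the only term, Benjamini-Hochberg adjustment over all tested genes, threshold 0.05. A standard error is the absolute log2 fold change over the square root of F. CPM use full library totals times TMM factors (0.895 to 1.07). Intervals are 95% Clopper-Pearson on summed counts. The fit was tested on simulated data. DESeq2 1.42.0 and limma-voom 3.58.1 were alternatives, beside other scaling, filters, summed suffixed rows and each library left out. A replicate block or the library name ending was also added as a term.

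Members, lists and tests were chosen with earlier results of these data known. Named members were the largest called changes of each subunit and direction, the most abundant, suffixed rows, mrps18 paralogs and those outside the filter. Named list genes were the 4 largest called changes and those against the list's majority. In the cytosolic ribosomal protein, marker and cell cycle lists, not all genes so picked are named above. The neighbours mllt11 and acaa2, and mrpl40, were not picked by these rules. The uncalled genes mrpl4, mrps14, mrpl22, mrpl13, mrps30, dap3, gadd45gip1, ict1 and tufm, and the called genes hsd17b10, mrps34, mrpl24 and mrpl35, were added after their values were seen.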

Additional observations from a re-analysis of the deposited data

How the results depend on the processing

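Rescaling, summing suffixed rows, a stricter filter or none, DESeq2 and limma-voom kept the direction of every called member they tested (mrps34 lost its call with DESeq2, adjusted p 0.0753), and the median of all tested genes stayed within 0.08 of 0. The filter at 10 CPM left 3 members higher, 2 of them in the large subunit and 1 among the members measured in both groups. Small subunit genes higher numbered 2 with limma-voom or with the library name ending as a term and 3 with replicates 2 and 3 only. In the last of these runs 14 large subunit genes were lower. Members measured in both groups called higher in these 3 runs numbered 1, 1 and 2. Over all genes 1284 were higher with the filter at 10 CPM and 1574 with limma-voom. With replicates 2 and 3 only, 1703 were higher and 1468 lower over all genes, beside 1513 and 1217 in the main run. The small subunit median was -0.64 with limma-voom and -0.63 by structure. Leaving out each library in turn gave 6 to 25 members lower (the same range for those measured in both groups), 2 to 9 in the small and 4 to 16 in the large subunit. Over all genes 860 to 1396 were lower when an iridophore library was left out, beside 1217 in the main run. With each of the 6 libraries left out, medians ranged from -0.63 to -0.36 for the members and from -0.72 to -0.37 for those measured in both groups. In the small subunit they ranged from -0.69 to -0.48. The share of counts stayed at 61.1% to 68.3% of the control. Same-numbered libraries of the groups deviated together with correlations of 0.315, 0.071 and 0.175, and iridophore replicate 2 correlated best with control replicate 3 (0.119). No label states a pairing, and the main run took the numbers as no pairs. Of the 47 members that passed the filter in both groups, 32 had their highest iridophore CPM in replicate 1. For the control, 30 had their highest CPM in replicate 1. Libraries of the 2 groups whose names share an ending correlated at 0.071 to 0.315, and the others at -0.241 to -0.152. These are correlations of deviations from the mean of 3 libraries. Positive values for some pairs therefore bring negative values for others, and the contrast of signs is partly built in. With the replicate block 19 members were lower and 5 higher, and 1387 genes lower and 1584 higher over all. With the library name ending as a term 20 members were lower and 6 higher, and 1467 genes lower and 1674 higher over all. The causes of these changes were not tested. In the shallowest library 3 counts are 5.43 CPM.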
